A study of Sus scrofa with 18 samples.

Results

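The genes described here build the junctions, the simple keratin filaments and the polarity complexes of epithelial cells. They were chosen by gene symbol and are CDH1, CTNNA1, CTNND1, EPCAM, JUP, DSP, DSG2, DSC2, OCLN, F11R, CXADR, PATJ, PRKCI, PRKCZ, KRT7, KRT8, KRT18 and KRT19, together with every symbol of the claudin (CLDN), connexin (GJA and GJB), plakophilin (PKP), TJP, PARD3, PARD6 and LLGL families. The rule took 66 of the 20983 genes in the count table, and 43 of the 66 had enough counts to enter the tests across 13187 genes. The remaining 23 are described with the low genes near the end. The rule itself reads no measured value, but it was set with earlier results of these data known.

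The libraries came from porcine parthenogenetic embryos at the 2-cell, 4-cell and 8-cell stage. Cumulus-oocyte complexes from ovaries of slaughtered premature gilts had been matured either in FLI, a TCM 199 medium with FGF2, LIF, IGF1, EGF, PMSG, hCG, BSA, pyruvate, glutamine, cysteine and gentamycin, or in DMEM with PMSG, hCG, EGF, IGF1 and FGF but no LIF. In all 6 groups the oocytes were then stripped of cumulus cells, activated with ionomycin and 6-DMAP instead of sperm, and cultured in PZM-3. Every combination of stage and medium had 3 libraries, each made from a pool of whole embryos without a paternal genome, so a value is an average over pooled embryos and their cells, and fewer cells of a type and less RNA per cell cannot be told apart. The comparisons ask whether the maturation medium was followed by a difference in the embryos, and how the genes changed between stages. The labels do not state whether a group's 3 libraries go back to different batches of ovaries, so the p-values measure the spread between these libraries, which may be technical.

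As background, the blastomeres of an early mammalian embryo lie loosely together until compaction, when E-cadherin adhesions between the cells become tight. The outer cells then gain an apical surface, on which the PARD6 and atypical protein kinase C complex sits, and join into the first epithelium of the embryo, the trophectoderm, which is sealed by tight junctions of claudins, occludin and ZO proteins and strengthened by desmosomes bound to keratin filaments. Connexins form gap junctions, channels that couple neighbouring cells. In pigs the main activation of the embryo's own genome takes place at the 4-cell stage, before compaction and before a trophectoderm exists.

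Library totals were between 1737985 and 6781185 counts (median 4581572), so 3 counts correspond to between 0.442 and 1.73 CPM. CPM are counts scaled to library size, here with edgeR's TMM factors, and are used to compare libraries for a given gene. Levels of different genes are compared only as TPM, the authors' values that also divide by gene length. Between 43 and 63 of the 66 genes had at least 1 count in a library, and together they took between 0.4739% and 0.5904% of all counts. The sum of 12 oocyte marker genes, led by BMP15 and H1-8, was between 7279 and 8072 CPM in the 6 2-cell libraries and between 1553 and 4147 CPM in the 6 4-cell libraries, and none of the 12 was at 0 in either stage. Replicate 3 had the highest 4-cell sum in each medium, with 2162, 2641 and 4147 CPM in FLI replicates 1 to 3. In 4-cell DMEM replicates 1 to 3 the sums were 1553, 2272 and 3226 CPM. At the 8-cell stage the sum was 1653, 4842 and 401 CPM in FLI replicates 1 to 3 and 2909, 1052 and 802 CPM in DMEM replicates 1 to 3. FLI replicate 2 and DMEM replicate 1 therefore had the 2 highest oocyte sums of the 8-cell stage, and FLI replicate 3 had the lowest and also the most genes detected of all 18 libraries (18595). Comparisons with the 8-cell stage are given with and without these 3 libraries. A list of 16 cumulus and granulosa genes summed to between 126 and 149 CPM at the 2-cell stage, between 447 and 674 CPM at the 4-cell stage and between 278 and 376 CPM at the 8-cell stage, with 1 to 3 of its genes at 0 in each group. From the 4-cell stage it was led by NR5A2, a nuclear receptor, at 337 CPM in FLI and 343 CPM in DMEM. A list of 11 skin epithelium genes summed to between 246 and 297 CPM at the 2-cell stage and between 46.8 and 122 CPM later, almost all of it TP63 and SFN, while KRT10 averaged at most 7.58 CPM in any group and LORICRIN was at 0 in 5 of the 6 groups. A list of 11 blood and connective tissue genes stayed between 13.5 and 49.0 CPM. The contribution of other cell types to the values below was not tested.

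The step to the 4-cell stage divided the genes. Of the 43 tested, 16 were higher and 12 lower in 4-cell FLI than in 2-cell FLI embryos, and 19 were higher and 10 lower in 4-cell DMEM than in 2-cell DMEM embryos (edgeR's quasi-likelihood test, Benjamini-Hochberg adjusted p under 0.05 over all tested genes). Over all 13187 tested genes the calls were 34.6% higher and 27.2% lower in FLI and 35.2% higher and 28.4% lower in DMEM, so the shares among the 43 were near those of the whole table. The median log2 fold change of the 43 was 0.27 in FLI and 0.20 in DMEM, beside 0.18 and 0.16 over all tested genes. A total of 16 genes were called higher in both media and 9 lower in both, and 0 were called in opposite directions. With library size alone as the scaling, which moves the median of all genes to 0.05 in FLI and −0.01 in DMEM, the calls were 15 higher and 14 lower in FLI and 17 higher and 16 lower in DMEM. Without the 3 8-cell libraries, which share the estimate of spread, they were 18 higher and 15 lower in FLI and 19 higher and 16 lower in DMEM.

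**Figure D1:**
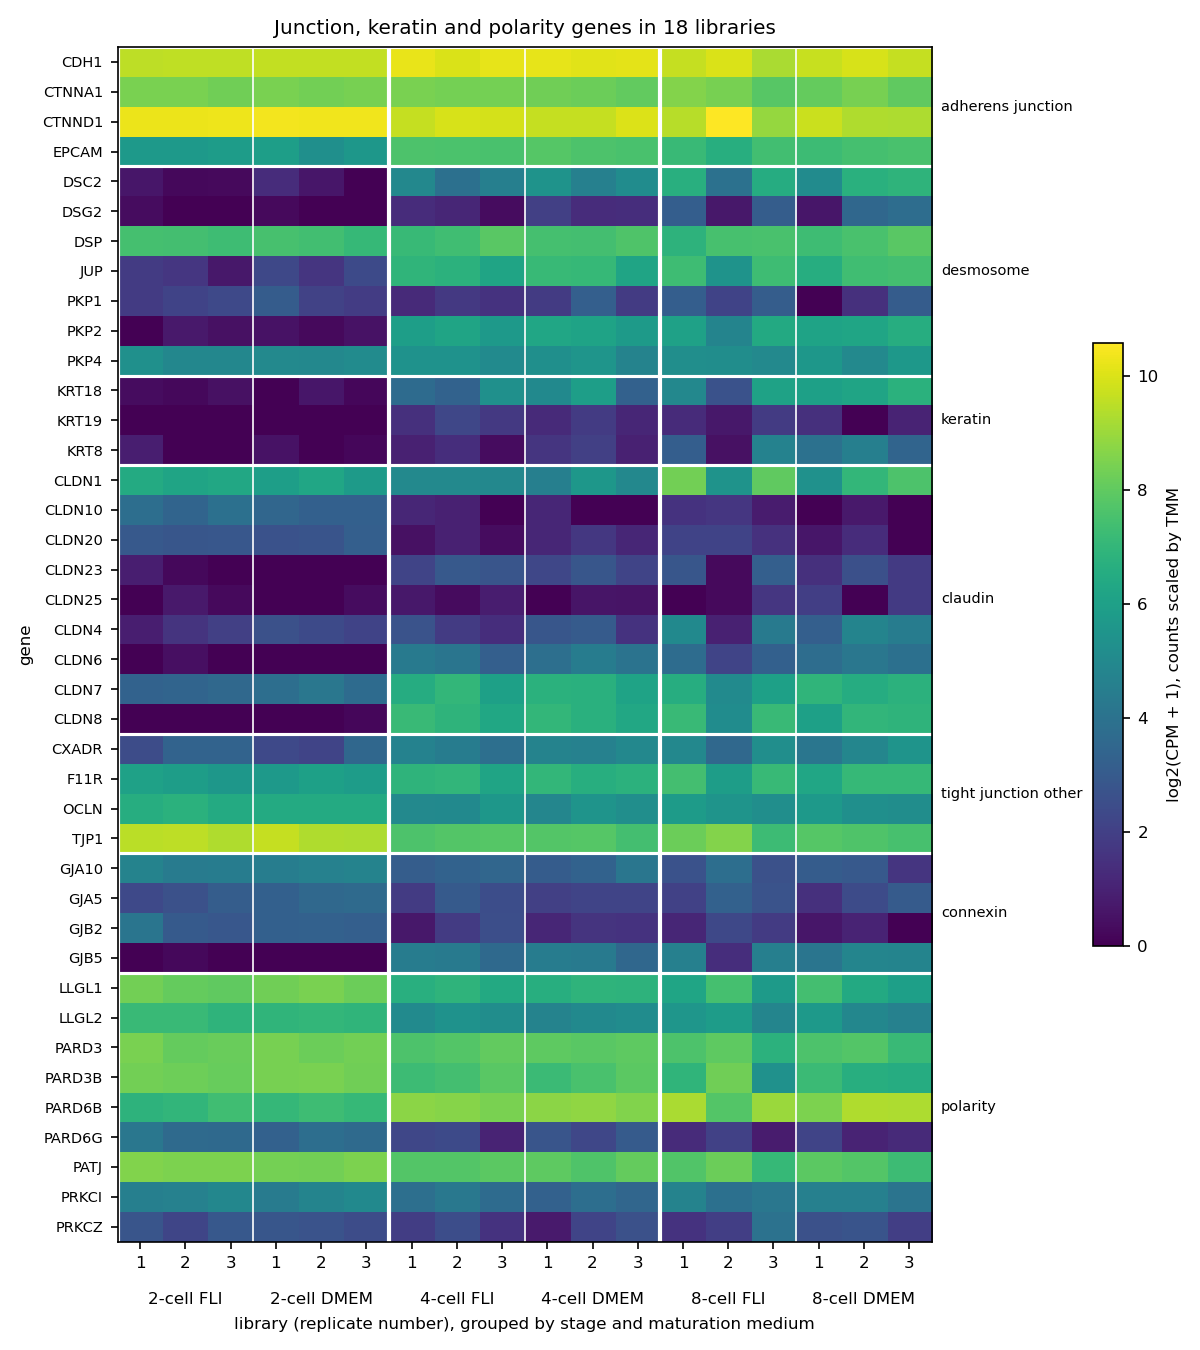
Level of tested genes in each of the 18 libraries as log2(CPM + 1), ordered by role (rows) and by stage and medium (columns). PKP2, CLDN8 and KRT18 were close to 0 in all 6 2-cell libraries and visible in all 6 4-cell libraries, while TJP1, LLGL1 and LLGL2 had their highest values at the 2-cell stage.

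Genes of the desmosome, the spot junction that ties the keratin filaments of neighbouring cells together, showed some of the widest steps. JUP (plakoglobin, chromosome 12, 20901396 to 20931210 in Sscrofa11.1), which links desmosomal cadherins to the filaments, had 121, 109.8 and 71.4 CPM in 4-cell FLI embryos, against 2.58, 2.18 and 0.605 CPM in 2-cell FLI embryos. In DMEM it had 138, 135 and 72.7 CPM in 4-cell embryos, against 3.89, 2.11 and 4.14 CPM in 2-cell embryos. Every 4-cell library was above every 2-cell library, and the log2 fold change was 5.83 ± 0.56 (SE) in FLI (adjusted p = 6.31e-08) and 5.07 ± 0.516 in DMEM (adjusted p = 1.25e-07).

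PKP2, a plakophilin that joins plakoglobin and desmoplakin in the desmosomal plaque, gave the smallest p of the 43 genes in both media. It had 60.8, 70.9 and 51.6 CPM in 4-cell FLI embryos, against 0, 0.672 and 0.404 CPM in 2-cell FLI embryos, a log2 fold change of 7.12 ± 0.531 (adjusted p = 2.22e-09). With DMEM, 76.6, 70.5 and 53.6 CPM were measured in 4-cell embryos, against 0.433, 0.192 and 0.428 CPM in 2-cell embryos, a log2 fold change of 7.44 ± 0.531 (adjusted p = 1.02e-09). In both media the highest 2-cell library of PKP2 was below 1 CPM and the lowest 4-cell library was above 50 CPM.

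The desmosomal cadherins DSC2 and DSG2, whose outer domains bridge the gap between cells, moved in the same direction at lower levels. DSC2 (chromosome 6, 114980601 to 115021305) had 29.7, 14 and 22.7 CPM in 4-cell FLI embryos, against 0.573, 0.168 and 0.202 CPM in 2-cell FLI embryos (log2 fold change 6.16 ± 0.961, adjusted p = 2.53e-05). In DMEM it had 42.4, 23.7 and 35 CPM in 4-cell embryos, against 1.51, 0.576 and 0 CPM in 2-cell embryos (5.71 ± 0.84, adjusted p = 1.27e-05). The groups did not overlap in either medium. DSG2 (chromosome 6, 115400243 to 115454340), which lies 379 kb from DSC2, had 1.57, 1.17 and 0.27 CPM in 4-cell FLI embryos, against 0.286, 0 and 0 CPM in 2-cell FLI embryos. With DMEM, 3.05, 1.53 and 1.65 CPM were measured in 4-cell embryos, against 0.216, 0 and 0 CPM in 2-cell embryos. The 2-cell groups held so few counts of DSG2 that the ratio is wide, 35.2 in DMEM (exact 95% counting interval 5.79 to 1444, adjusted p = 0.00814) and 15.4 in FLI (2.35 to 653), where the test was not passed (adjusted p = 0.053).

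Not every desmosomal gene took part. DSP, the desmoplakin that anchors the filaments, had 139, 161 and 232 CPM in 4-cell FLI embryos, against 175, 171 and 157 CPM in 2-cell FLI embryos, and 175, 173 and 201 CPM in 4-cell DMEM embryos, against 182, 165 and 136 CPM in 2-cell DMEM embryos. These groups overlapped, with a log2 fold change of 0.08 in FLI (95% interval −0.4 to 0.56) and 0.19 in DMEM (−0.29 to 0.67). PKP4, a plakophilin relative found at several kinds of junction, lay between 25.7 and 49.6 CPM in all 18 libraries, and PKP1, the plakophilin of skin, between 0 and 8.14 CPM, and neither was called in this step. Desmosomal TPM together averaged 185 ± 18.5 in 4-cell FLI embryos, against 83.5 ± 6.5 in 2-cell FLI embryos, and 193 ± 32.4 in 4-cell DMEM embryos, against 81.9 ± 8.22 in 2-cell DMEM embryos (SD, n = 3 each). DSP made up 27.4% and 25.8% of that sum at the 4-cell stage in FLI and DMEM, against 74.1% and 71.3% at the 2-cell stage in FLI and DMEM, and JUP made up 35.9% and 36.5% at the 4-cell stage.

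Keratins 8, 18 and 19 are the filaments of simple epithelia, keratin 8 pairing with either of the other two, and in mouse embryos they are early marks of trophectoderm. KRT18 (chromosome 5, 18217691 to 18221429) had 12, 9.13 and 38.9 CPM in 4-cell FLI embryos, against 0.286, 0.168 and 0.404 CPM in 2-cell FLI embryos. In DMEM it had 31.4, 61.1 and 8.74 CPM in 4-cell embryos, against 0, 0.576 and 0.143 CPM in 2-cell embryos. KRT18 was higher at the 4-cell stage by a log2 fold change of 6.01 ± 1.13 in FLI (adjusted p = 0.000171) and 6.98 ± 1.11 in DMEM (adjusted p = 2.97e-05). Its 4-cell libraries spread widely, with the widest log2(CPM + 1) range of the 43 tested genes of the rule in both 4-cell groups. KRT18 overlaps another gene on the opposite strand, and since the strand setting of the counting is not stated, its counts and those of that gene cannot be told apart. The same holds for CTNNA1, GJB2, PARD3B, PRKCZ and PARD6A.

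KRT19 (chromosome 12, 21115448 to 21119107) was at 0 in all 6 2-cell libraries. It had 1.77, 3.74 and 2.43 CPM in 4-cell FLI embryos and 1.41, 2.54 and 1.18 CPM in 4-cell DMEM embryos, at least 12.5-fold higher in FLI (adjusted p = 0.00175) and at least 9.48-fold higher in DMEM (adjusted p = 0.00292) when the 2-cell group is set to 3 counts in all. KRT19 was therefore low but present in every 4-cell library.

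KRT8 (chromosome 5, 18167553 to 18180404), 37.3 kb from KRT18 with no gene between them, stayed low in this step. It had 0.984, 1.64 and 0.27 CPM in 4-cell FLI embryos, against 0.859, 0 and 0 CPM in 2-cell FLI embryos (ratio 4.78, 1.31 to 26.2, adjusted p = 0.227), and 2.11, 3.05 and 0.945 CPM in 4-cell DMEM embryos, against 0.433, 0 and 0.143 CPM in 2-cell DMEM embryos (ratio 11.3, 3.44 to 58.4, adjusted p = 0.0366). The call in DMEM was lost with library size as the scaling (adjusted p = 0.0529), with the replicate number as a block (adjusted p = 0.051), and when 2-cell DMEM replicate 2 or 3, 4-cell DMEM replicate 1 or 2 or 8-cell DMEM replicate 3 was left out (adjusted p between 0.0507 and 0.106). Per length, KRT18 made up 80.2% of keratin TPM in 4-cell FLI embryos and 87.4% in 4-cell DMEM embryos, so that its partner KRT8 was far below it at this stage.

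The claudins, whose outer loops form the seal of the tight junction, included genes that switched on and genes that were lost. CLDN8 (chromosome 13, 193562074 to 193564168), a claudin of tight epithelia such as the collecting duct, was the clearest. It had 144, 117 and 78.1 CPM in 4-cell FLI embryos, against 0 in all 3 2-cell FLI libraries, and 128, 104 and 80.1 CPM in 4-cell DMEM embryos, against 0, 0 and 0.143 CPM in 2-cell DMEM embryos. The ratio was at least 559-fold in FLI (adjusted p = 1.47e-08) against 3 counts over the group and 1749 in DMEM (313 to 69125, adjusted p = 1.4e-08).

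CLDN6 (chromosome 3, 39167853 to 39172628), a claudin of embryonic epithelia, had 19.3, 16.4 and 8.11 CPM in 4-cell FLI embryos, against 0, 0.336 and 0 CPM in 2-cell FLI embryos (ratio 109, 29.8 to 908, adjusted p = 1.64e-06). With DMEM, 13.6, 20.9 and 15.4 CPM were measured in 4-cell embryos, against 0 in all 3 2-cell libraries (at least 92.6-fold, adjusted p = 3.13e-07). CLDN6 overlaps TNFRSF12A on the opposite strand and is counted with that doubt. CLDN23 was also near 0 before the step, with 3.54, 6.79 and 5.95 CPM in 4-cell FLI embryos, against 0.859, 0.168 and 0 CPM in 2-cell FLI embryos (log2 fold change 4.07 ± 1.09, adjusted p = 0.0043), and 3.75, 6.11 and 3.54 CPM in 4-cell DMEM embryos, against 0 in all 3 2-cell DMEM libraries (at least 24.8-fold, adjusted p = 0.000503).

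CLDN7 (chromosome 12, 52612510 to 52628362), often found along the sides of epithelial cells, was present before the step and rose further. It had 93.3, 128 and 64.3 CPM in 4-cell FLI embryos, against 9.17, 9.74 and 10.9 CPM in 2-cell FLI embryos (log2 fold change 3.25 ± 0.355, adjusted p = 3.27e-07). In DMEM it had 109, 105 and 69.2 CPM in 4-cell embryos, against 13.4, 17.3 and 12.1 CPM in 2-cell embryos (2.73 ± 0.343, adjusted p = 1.9e-06). These 4 claudins, CLDN6, CLDN7, CLDN8 and CLDN23, were the claudins called higher in both media.

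Other claudins fell. CLDN10, a claudin that forms ion pores, had 1.18, 0.936 and 0 CPM in 4-cell FLI embryos, against 13.2, 9.58 and 13.9 CPM in 2-cell FLI embryos (log2 fold change −3.99 ± 0.834, adjusted p = 0.000481), and 1.17, 0 and 0 CPM in 4-cell DMEM embryos, against 10.4, 8.45 and 8.56 CPM in 2-cell DMEM embryos (−4.42 ± 0.905, adjusted p = 0.000389). CLDN20 had 0.394, 0.936 and 0.27 CPM in 4-cell FLI embryos, against 6.87, 6.22 and 6.26 CPM in 2-cell FLI embryos (−3.52 ± 0.701, adjusted p = 0.000308), and 1.17, 2.29 and 1.18 CPM in 4-cell DMEM embryos, against 5.41, 5.76 and 8.13 CPM in 2-cell DMEM embryos (−2.05 ± 0.623, adjusted p = 0.0083). Both genes were low in every 4-cell library, and CLDN20 overlaps TFB1M on the opposite strand.

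CLDN1 (chromosome 13, 127712777 to 127730657), the claudin without which the skin barrier of mice fails, was called lower in this step in FLI. It had 31.1, 30.9 and 29.7 CPM in 4-cell FLI embryos, against 87.1, 72.1 and 80.5 CPM in 2-cell FLI embryos (−1.38 ± 0.542, adjusted p = 0.0339), a call lost when any 1 of these 6 libraries was left out (adjusted p between 0.0511 and 0.0783). With DMEM, 23, 47.1 and 30 CPM were measured in 4-cell embryos, against 59.7, 75.3 and 53.6 CPM in 2-cell embryos (adjusted p = 0.143). The 6 4-cell libraries were below the 6 2-cell libraries all the same. CLDN4, a claudin of many simple epithelia, had 5.51, 2.57 and 1.62 CPM in 4-cell FLI embryos, against 0.859, 2.02 and 3.03 CPM in 2-cell FLI embryos, and 6.09, 7.13 and 1.89 CPM in 4-cell DMEM embryos, against 5.19, 4.22 and 3.42 CPM in 2-cell DMEM embryos, with overlap in both media. CLDN25 was at most 2.89 CPM in any library.

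Summed over the family, claudin TPM averaged 419.5 ± 123 in 4-cell FLI embryos, against 192 ± 12.9 in 2-cell FLI embryos, and 388 ± 83.4 in 4-cell DMEM embryos, against 178 ± 15.2 in 2-cell DMEM embryos. CLDN1 made up 6.31% of it in 4-cell FLI embryos, against 44.5% in 2-cell FLI embryos, and 6.73% in 4-cell DMEM embryos, against 37.1% in 2-cell DMEM embryos. CLDN7 made up 48.2% and 48.5% and CLDN8 35.5% and 32.8% of claudin TPM at the 4-cell stage in FLI and DMEM. The claudin message of the 4-cell embryo was thus mostly CLDN7 and CLDN8.

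**Figure D2:**
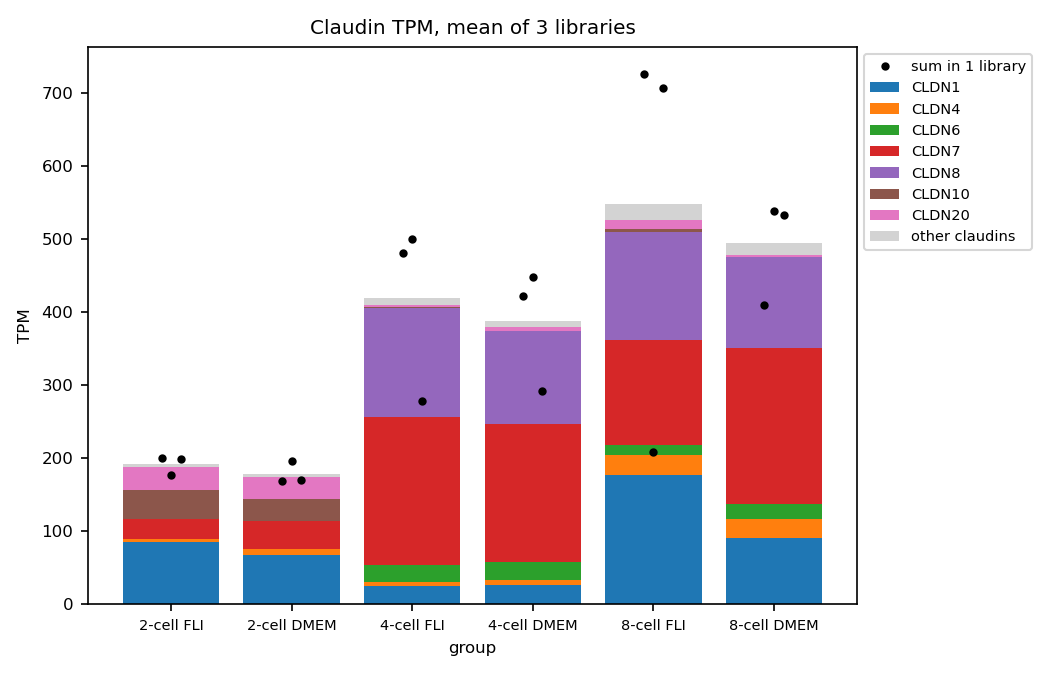
Claudin TPM per group, stacked by gene, as the mean of 3 libraries, with stage and medium along the horizontal axis and TPM on the vertical. CLDN1 is the largest block at the 2-cell stage (44.5% in FLI and 37.1% in DMEM), CLDN7 and CLDN8 make up most of the bar at the 4-cell stage, and CLDN1 is again visible at the 8-cell stage.

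The other tight junction genes went both ways. TJP1 (ZO-1, chromosome 1, 144930370 to 145195836), the scaffold under the tight junction, had 198, 218 and 224 CPM in 4-cell FLI embryos, against 721, 744 and 651 CPM in 2-cell FLI embryos (log2 fold change −1.73 ± 0.253, adjusted p = 1.25e-05). In DMEM it had 218, 219 and 170.3 CPM in 4-cell embryos, against 814, 652 and 631 CPM in 2-cell embryos (−1.79 ± 0.253, adjusted p = 8.09e-06). OCLN (occludin, chromosome 16, 47600212 to 47654033), a membrane protein of the same junction, fell with it, to 30.9, 31.4 and 48.1 CPM in 4-cell FLI embryos, against 96, 109 and 88 CPM in 2-cell FLI embryos (−1.41 ± 0.24, adjusted p = 6.35e-05), and to 28.4, 44.3 and 36.6 CPM in 4-cell DMEM embryos, against 88.3, 88.9 and 87 CPM in 2-cell DMEM embryos (−1.27 ± 0.239, adjusted p = 0.000171). For both genes the stages did not overlap. Per length, TJP1 made up 22.2% of the TPM of these other tight junction genes in 4-cell FLI embryos, against 55.2% in 2-cell FLI embryos.

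F11R (junctional adhesion molecule A) and CXADR, immunoglobulin-like adhesion proteins placed beside the tight junction, were higher at the 4-cell stage. F11R had 119, 123 and 72.4 CPM in 4-cell FLI embryos, against 66.4, 58.3 and 47.6 CPM in 2-cell FLI embryos (0.87 ± 0.324, adjusted p = 0.0267), and 129, 97.5 and 111 CPM in 4-cell DMEM embryos, against 50.8, 64.5 and 56.1 CPM in 2-cell DMEM embryos (0.98 ± 0.324, adjusted p = 0.0138). CXADR had 24.8, 20.6 and 13.5 CPM in 4-cell FLI embryos, against 4.58, 9.24 and 9.28 CPM in 2-cell FLI embryos (1.33 ± 0.479, adjusted p = 0.0223), and 25.8, 24.2 and 30 CPM in 4-cell DMEM embryos, against 4.11, 3.46 and 10.6 CPM in 2-cell DMEM embryos (2.11 ± 0.485, adjusted p = 0.00106). The stages did not overlap for either gene. The F11R call in FLI was lost with library size as the scaling (adjusted p = 0.0655) and without any 1 of the 2-cell FLI libraries, 4-cell FLI replicate 1 or 2 or 4-cell DMEM replicate 1 (adjusted p between 0.0507 and 0.0972), and the call in DMEM without 2-cell DMEM replicate 1 or 4-cell DMEM replicate 1 (adjusted p = 0.0506 and 0.102). CXADR in FLI lost its call without 2-cell FLI replicate 1 or 4-cell FLI replicate 1 (adjusted p = 0.139 and 0.082), and overlaps another gene on the opposite strand.

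The adherens junction genes were abundant at every stage and moved less. CDH1 (E-cadherin, chromosome 6, 18075480 to 18155986), the adhesion molecule of compaction, had the highest mean TPM of the 66 genes in all 6 groups. It had 1194, 1007 and 1160.5 CPM in 4-cell FLI embryos, against 740.1, 758 and 763 CPM in 2-cell FLI embryos (0.57 ± 0.178, adjusted p = 0.0097), and 1186, 1108 and 1126 CPM in 4-cell DMEM embryos, against 780.1, 785 and 784 CPM in 2-cell DMEM embryos (0.54 ± 0.178, adjusted p = 0.013). The 6 4-cell libraries of CDH1 all lay above the 6 2-cell libraries, and the call in DMEM was lost without 4-cell DMEM replicate 1 (0.38, adjusted p = 0.0763) and with no filter on low counts (adjusted p = 0.0719).

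EPCAM, an adhesion molecule of epithelial and early embryonic cells, changed more. It had 199, 193 and 187 CPM in 4-cell FLI embryos, against 52.4, 51.7 and 57.3 CPM in 2-cell FLI embryos (1.84 ± 0.211, adjusted p = 6.2e-07), and 223, 196 and 187 CPM in 4-cell DMEM embryos, against 60.4, 38.2 and 47.4 CPM in 2-cell DMEM embryos (2.05 ± 0.212, adjusted p = 1.54e-07). In both media every 4-cell library was above every 2-cell library.

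The catenins, which connect cadherins to actin or hold them at the membrane, were not called. CTNNA1 (alpha catenin) had 356, 331 and 333 CPM in 4-cell FLI embryos, against 348, 355 and 315 CPM in 2-cell FLI embryos (log2 fold change 0.0, 95% interval −0.4 to 0.41), and 317, 299 and 260.3 CPM in 4-cell DMEM embryos, against 348, 324 and 344 CPM in 2-cell DMEM embryos (−0.22, −0.62 to 0.19). CTNND1 (delta catenin) had 798, 985 and 960.4 CPM in 4-cell FLI embryos, against 1261, 1262 and 1269 CPM in 2-cell FLI embryos, and 806, 801 and 1043 CPM in 4-cell DMEM embryos, against 1352, 1314 and 1329.6 CPM in 2-cell DMEM embryos. All 6 4-cell libraries of CTNND1 were below all 6 2-cell libraries, but the fitted change of −0.47 in FLI (adjusted p = 0.172) and −0.59 in DMEM (adjusted p = 0.0843) did not pass the test. With only the compared groups in the fit, or without the 3 8-cell libraries that stand apart, CTNND1 was called lower in both media.

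**Figure D3:**
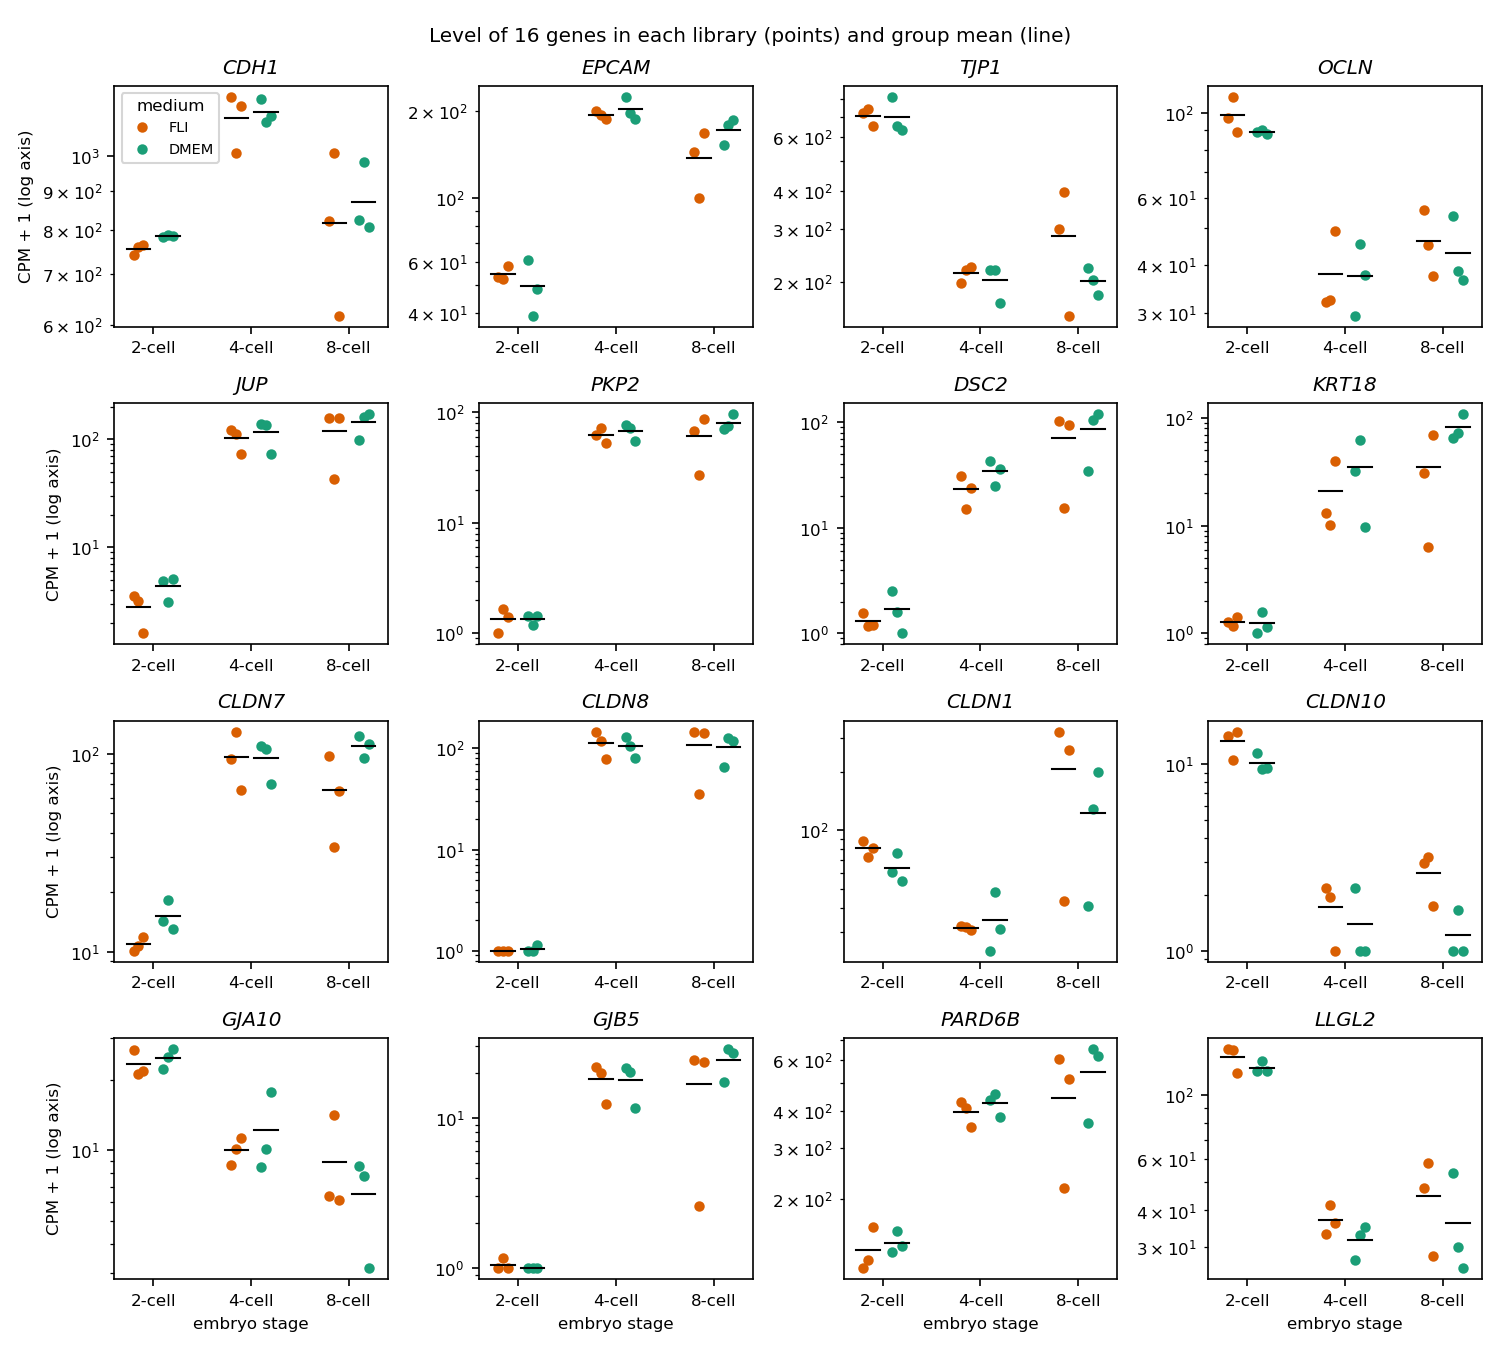
Level of 16 of the genes in each library (points, CPM + 1 on a log axis) by stage, with FLI beside DMEM and a line at each group mean. JUP, PKP2 and CLDN8 step up between the 2-cell and the 4-cell stage, and TJP1 and OCLN step down. For these named genes the ranges of the FLI and DMEM points overlap at each stage, which does not hold for every tested gene.

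GJB5 (chromosome 6, 91002163 to 91002984), a trophoblast connexin in mouse, was higher at the 4-cell stage. It had 20.9, 19 and 11.4 CPM in 4-cell FLI embryos, against 0, 0.168 and 0 CPM in 2-cell FLI embryos (ratio 253, 44.9 to 10021, adjusted p = 1.87e-05), and 20.6, 19.3 and 10.6 CPM in 4-cell DMEM embryos, against 0 in all 3 2-cell DMEM libraries (at least 94.4-fold, adjusted p = 8.66e-06). Every 4-cell library of GJB5 was above every 2-cell library.

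GJB2 and GJA10 were lower at the 4-cell stage in both media. GJB2 had 0.591, 2.57 and 4.87 CPM in 4-cell FLI embryos, against 16.6, 7.06 and 6.26 CPM in 2-cell FLI embryos (−1.91 ± 0.66, adjusted p = 0.0182), and 1.17, 2.04 and 1.89 CPM in 4-cell DMEM embryos, against 8.44, 8.64 and 8.28 CPM in 2-cell DMEM embryos (−2.3 ± 0.683, adjusted p = 0.00714). GJA10 had 7.68, 9.13 and 10.3 CPM in 4-cell FLI embryos, against 25.8, 20.2 and 20.8 CPM in 2-cell FLI embryos (−1.3 ± 0.411, adjusted p = 0.0108), and fell in DMEM too (−1.09 ± 0.405, adjusted p = 0.0257). Without 2-cell FLI replicate 1 or 4-cell FLI replicate 1 or 2, GJB2 lost its call in FLI (adjusted p between 0.0501 and 0.0977), and without 2-cell DMEM replicate 2 or 3 or 4-cell DMEM replicate 1 or 2, GJA10 lost its call in DMEM (adjusted p between 0.0542 and 0.086). GJA5 was called in DMEM (−1.62 ± 0.498, adjusted p = 0.00863) and not in FLI (−0.27, adjusted p = 0.652). GJB2 and GJA10 together were most of the connexin TPM before the step, GJB2 51.4% and GJA10 32.7% in 2-cell FLI embryos and GJB2 45.3% and GJA10 32.9% in 2-cell DMEM embryos. GJA1, the connexin that couples the oocyte's cumulus cells and many other tissues, was at most 1.96 CPM in any library, below the filter of the test.

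Of the 9 tested polarity genes 5 fell in FLI (27.2% of all tested genes were called lower) and 3 in DMEM (28.4%), and 1 rose in both (34.6% of all tested genes were called higher in FLI and 35.2% in DMEM). The gene that rose was PARD6B, the adaptor that brings CDC42 to atypical protein kinase C at the apical surface, which had 429.9, 409 and 351 CPM in 4-cell FLI embryos, against 115, 123 and 160.0 CPM in 2-cell FLI embryos (1.58 ± 0.296, adjusted p = 0.000174). With DMEM, 436, 456 and 382 CPM were measured in 4-cell embryos, against 130.5, 155 and 137 CPM in 2-cell embryos (1.59 ± 0.296, adjusted p = 0.000157). Its share of polarity TPM was 44.4% in 4-cell FLI embryos, against 12.2% in 2-cell FLI embryos, and 45.0% in 4-cell DMEM embryos, against 12.3% in 2-cell DMEM embryos.

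LLGL1 and LLGL2 are relatives of the Drosophila tumour suppressor that holds the basolateral side against the apical complex, and both fell. LLGL2 had 32.1, 40.7 and 35.1 CPM in 4-cell FLI embryos, against 143, 142 and 118 CPM in 2-cell FLI embryos (−1.9 ± 0.281, adjusted p = 1.36e-05), and 26, 31.8 and 34.2 CPM in 4-cell DMEM embryos, against 120.3, 130.0 and 120.0 CPM in 2-cell DMEM embryos (−2.01 ± 0.283, adjusted p = 7.59e-06). LLGL1 fell by 1.49 on the log2 scale in FLI (SE 0.363, adjusted p = 0.00173) and by 1.55 in DMEM (SE 0.363, adjusted p = 0.00123), and overlaps FLII on the opposite strand.

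PRKCI, the atypical protein kinase C that PARD6B binds, went the other way from its adaptor. It had 13.8, 18 and 11.9 CPM in 4-cell FLI embryos, against 22.9, 24.5 and 29.1 CPM in 2-cell FLI embryos (−0.81 ± 0.287, adjusted p = 0.0212), and 8.91, 13 and 10.4 CPM in 4-cell DMEM embryos, against 20.1, 26.7 and 32 CPM in 2-cell DMEM embryos (−1.29 ± 0.292, adjusted p = 0.000944). The call in FLI was lost without 2-cell FLI replicate 3 or 4-cell FLI replicate 1 or 3 (adjusted p between 0.0625 and 0.0804). The other atypical kinase, PRKCZ, had 2.76, 4.68 and 1.89 CPM in 4-cell FLI embryos, against 6.01, 3.7 and 6.46 CPM in 2-cell FLI embryos, and 0.703, 3.56 and 5.2 CPM in 4-cell DMEM embryos, against 6.06, 5.57 and 4.57 CPM in 2-cell DMEM embryos, with overlap in both media and no call. PARD3, the scaffold that recruits the complex to junctions, had 197, 215 and 267 CPM in 4-cell FLI embryos, against 347, 274 and 284 CPM in 2-cell FLI embryos (−0.42, 95% interval −0.92 to 0.09), and 249, 233 and 252 CPM in 4-cell DMEM embryos, against 346, 299 and 319.9 CPM in 2-cell DMEM embryos (adjusted p = 0.16). Its stages did not overlap, yet the change was called in neither medium unless only the compared groups were fitted or the 3 8-cell libraries that stand apart were left out, when it was called lower in both.

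PARD6G and PATJ, the scaffold of the Crumbs complex, were called lower in FLI (PARD6G −2.13 ± 0.519, adjusted p = 0.00178, and PATJ −0.71 ± 0.231, adjusted p = 0.0128) and not in DMEM (PARD6G −0.99, adjusted p = 0.0885, and PATJ −0.49, adjusted p = 0.0696). PARD3B was not called in either medium. Polarity TPM summed to 652 ± 27.1 in 4-cell FLI embryos, against 1052 ± 65.4 in 2-cell FLI embryos, and 648 ± 39.3 in 4-cell DMEM embryos, against 1085 ± 45.7 in 2-cell DMEM embryos. In both media the 4-cell sums lay below the 2-cell sums by several times the SD, but TPM and CPM scale differently between stages. DSP averaged 168 CPM and 61.8 TPM in 2-cell FLI embryos, and 177 CPM and 49.6 TPM in 4-cell FLI embryos. In DMEM it averaged 161 CPM and 58.5 TPM at the 2-cell stage, and 183 CPM and 48.4 TPM at the 4-cell stage. How much of the fall in the polarity sums comes from this scale was not tested.

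By role, the genes called higher and lower in the step are given in FLI and then in DMEM. They were 2 and 0 and again 2 and 0 of 4 adherens genes, with EPCAM counted among them. Desmosomal genes had 3 and 0 and then 4 and 0 of 7, and keratins 2 and 0 and then 3 and 0 of 3. Claudins had 4 and 3 and then 4 and 2 of 9. Other tight junction genes had 2 and 2 and then 3 and 2 of 5. Connexins had 2 and 2 and then 2 and 3 of 6, and polarity genes 1 and 5 and then 1 and 3 of 9. Over all tested genes 34.6% were called higher and 27.2% lower in FLI, and 35.2% and 28.4% in DMEM. Genes near 0 at the 2-cell stage, such as PKP2, DSC2, DSG2, KRT8, KRT18 and KRT19, could not be called lower. These counts, each of few genes, are therefore not read as a pattern of a role. The genes called only in DMEM, among them KRT8, DSG2 and GJA5, and the 3 called only in FLI (PARD6G, PATJ and CLDN1) are not shown to differ between media, since the difference of the steps was not past the adjusted threshold for any tested gene (0.0%) and past an unadjusted p of 0.05 for 0 of the 43 (2.56% of all tested genes). Without a model, the 6 4-cell libraries of both media lay above the 6 2-cell libraries for 16 of the genes (33.0% of all tested genes) and below them for 15 (29.8%). These 16 were the genes called higher in both media.

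**Figure D4:**
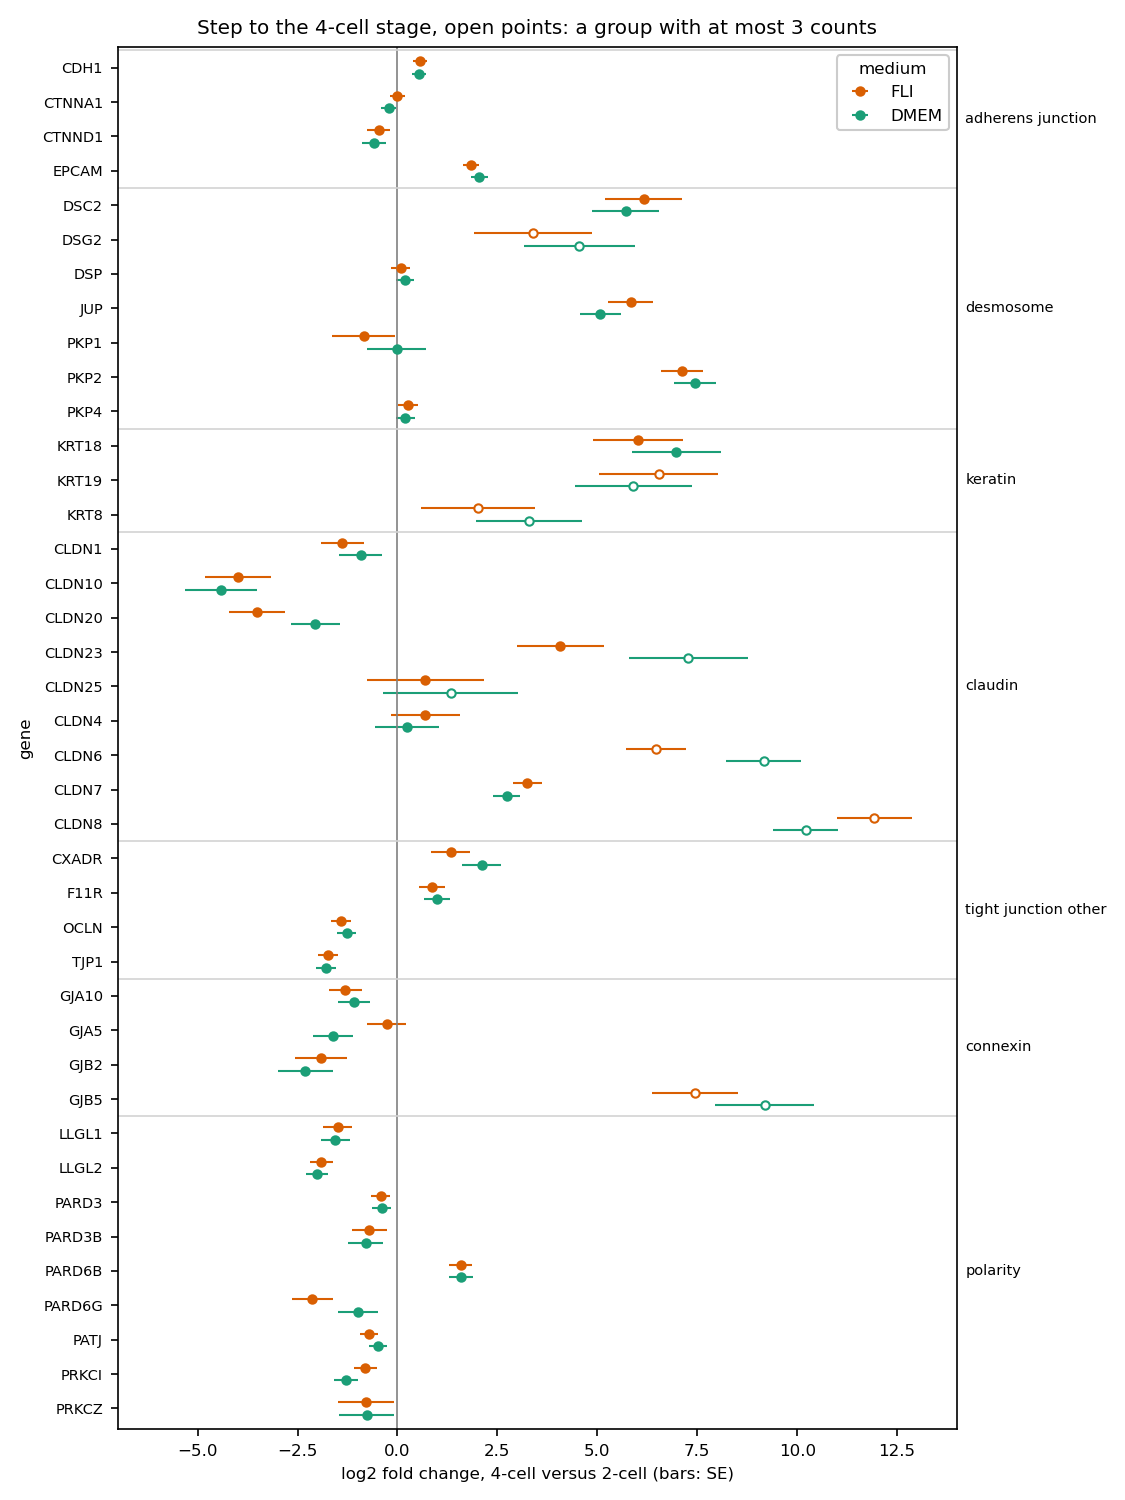
Log2 fold change of 4-cell against 2-cell embryos for tested genes, in FLI and in DMEM, with bars of 1 SE and open points where a group held at most 3 counts, for which the fitted value is no bound. Desmosomal, keratin and connexin genes such as PKP2, KRT18 and GJB5 lie at the far right, LLGL1, LLGL2 and TJP1 lie left of 0, and both media give the same sign for every gene called in both.

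Between the 4-cell and the 8-cell stage few genes passed the test. In 8-cell FLI against 4-cell FLI embryos 1 of the 43 was called higher and 0 lower, beside 0.804% higher and 2.24% lower of all tested genes, and in DMEM 0 were called, as over all genes (0.0% in each direction). At an unadjusted p of 0.05 there were 10 of the 43 in FLI (19.9% of all tested genes) and 9 in DMEM (14.5%). With DESeq2 there were 5 in FLI (9.02% of all genes with an adjusted p) and 2 in DMEM (3.43%).

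The gene called in FLI was CLDN1. It had 320.1, 42 and 257 CPM in 8-cell FLI embryos, against 31.1, 30.9 and 29.7 CPM in 4-cell FLI embryos (2.75 ± 0.562, adjusted p = 0.0209). In DMEM it had 39.9, 127 and 199 CPM in 8-cell embryos, against 23, 47.1 and 30 CPM in 4-cell embryos (1.88, adjusted p = 0.157). In each medium 1 8-cell library, FLI replicate 2 and DMEM replicate 1, stayed within the range of the 6 4-cell libraries, and these are the libraries with the high oocyte sums. The call in FLI was lost when any 1 of the 4-cell FLI libraries or 8-cell FLI replicate 1 was left out (adjusted p between 0.0617 and 0.0906) and with only these groups in the fit (adjusted p = 0.387).

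DSC2 split the same libraries. It had 103, 14.4 and 94 CPM in 8-cell FLI embryos, against 29.7, 14 and 22.7 CPM in 4-cell FLI embryos, and 33.6, 104 and 118 CPM in 8-cell DMEM embryos, against 42.4, 23.7 and 35 CPM in 4-cell DMEM embryos. DSG2 had 8.1, 0.591 and 7.74 CPM in 8-cell FLI embryos, against 1.57, 1.17 and 0.27 CPM in 4-cell FLI embryos, and 0.579, 10.7 and 12.9 CPM in 8-cell DMEM embryos, against 3.05, 1.53 and 1.65 CPM in 4-cell DMEM embryos. For both desmosomal cadherins FLI replicate 2 and DMEM replicate 1 were inside the range of the 6 4-cell libraries and the other 4 libraries were above it. CLDN4 had 31.9, 0.985 and 19.5 CPM in 8-cell FLI embryos, against 5.51, 2.57 and 1.62 CPM in 4-cell FLI embryos, and 8.11, 26.3 and 20.7 CPM in 8-cell DMEM embryos, against 6.09, 7.13 and 1.89 CPM in 4-cell DMEM embryos, again with FLI replicate 2 low and DMEM replicate 1 just above the 4-cell libraries.

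The keratins did not divide the libraries in quite this way. KRT8 had 7.86, 0.394 and 24.7 CPM in 8-cell FLI embryos, against 0.984, 1.64 and 0.27 CPM in 4-cell FLI embryos, and 14.5, 22.8 and 9.64 CPM in 8-cell DMEM embryos, against 2.11, 3.05 and 0.945 CPM in 4-cell DMEM embryos. KRT18 had 29.7, 5.32 and 67.8 CPM in 8-cell FLI embryos and 64.8, 71.7 and 107 CPM in 8-cell DMEM embryos, while its 4-cell libraries had 12, 9.13 and 38.9 CPM in FLI and 31.4, 61.1 and 8.74 CPM in DMEM. DMEM replicate 1, low for CLDN1, DSC2 and DSG2, was well above the 4-cell libraries for KRT8 and above them for KRT18, whereas FLI replicate 2 was low for all of these genes. KRT8 was not called in either medium (3.41, adjusted p = 0.0769 in FLI and 2.94, adjusted p = 0.187 in DMEM). KRT19 was not called in this step, with 1.47, 0.591 and 2.58 CPM in 8-cell FLI and 1.74, 0 and 1.07 CPM in 8-cell DMEM embryos.

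Without the 3 8-cell libraries that stand apart, 7 genes were called higher and 4 lower in 8-cell DMEM than in 4-cell DMEM embryos, beside 4.35% higher and 10.7% lower of all tested genes. The 7 were CLDN1 (2.29 ± 0.232, adjusted p = 3.23e-06), DSC2 (1.72 ± 0.316, adjusted p = 0.00122), CLDN4 (2.23 ± 0.489, adjusted p = 0.00427), KRT8 (3.0 ± 0.746, adjusted p = 0.00925), PARD6B (0.58 ± 0.152, adjusted p = 0.0128), DSG2 (2.48 ± 0.711, adjusted p = 0.0206) and PRKCI (0.89 ± 0.301, adjusted p = 0.0464). The 4 lower genes were PARD3B, PARD6G, CTNND1 and LLGL1. In FLI, where 8-cell replicate 1 was then the only library and was assumed to vary like the other groups, 6 were called higher and 0 lower, beside 4.05% higher and 5.48% lower of all tested genes. They were CLDN1 (3.39 ± 0.263, adjusted p = 4.49e-08), DSC2, CLDN4, DSG2, PARD6B and KRT8. The libraries were left out for their oocyte sums and numbers of genes detected. The oocyte sum fell between the 2-cell and the 4-cell stage, so it is itself a measure of stage in these data. Leaving out the 2 8-cell libraries with the highest sums can therefore widen the difference from the 4-cell stage. The calls made without them are not a separate test of that difference. At the 8-cell stage FLI replicate 2 and DMEM replicate 1 had the highest oocyte sums and low CLDN1, DSC2 and DSG2. Within its group DMEM replicate 1 was not the lowest for KRT8 or PRKCI. It also had the fewest counts of all 18 libraries (1737985). The part of these differences between libraries in the result was not tested.

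**Figure D5:**
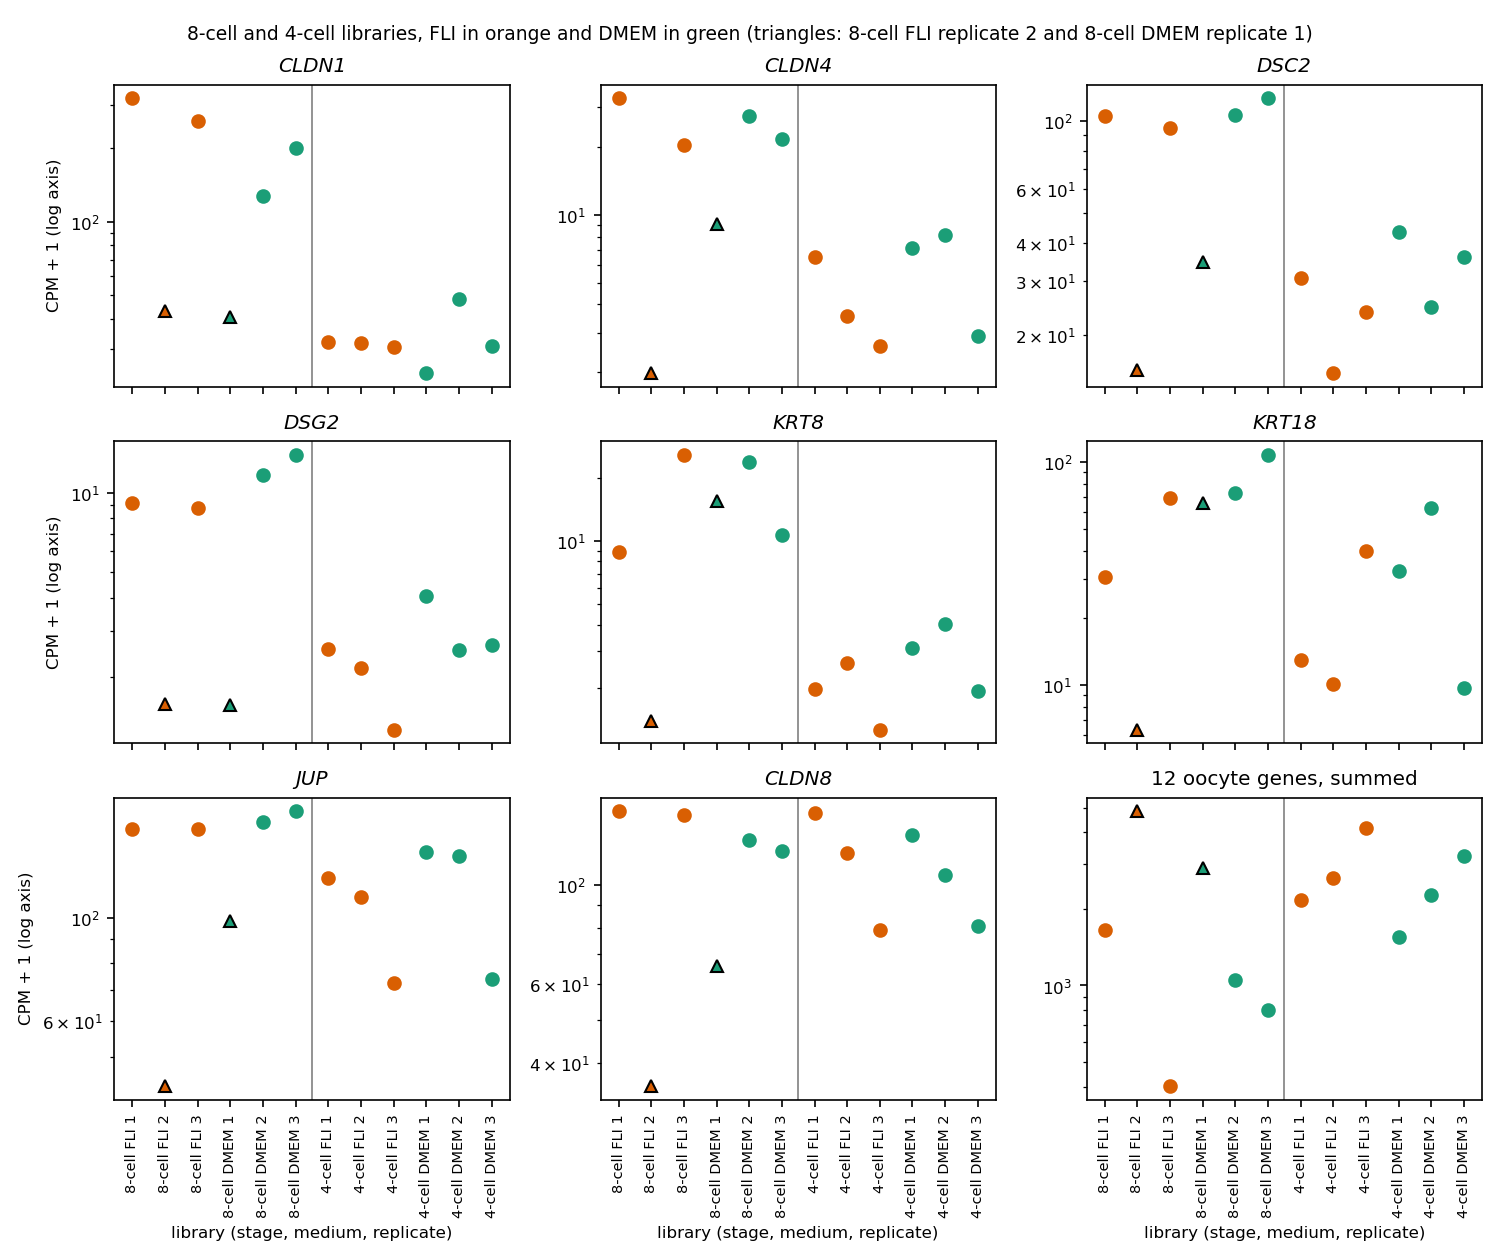
CPM + 1 on a log axis in each 8-cell and 4-cell library for 8 of the genes and for the sum of 12 oocyte genes, FLI in orange and DMEM in green, with 8-cell FLI replicate 2 and 8-cell DMEM replicate 1 as triangles. The triangles lie among the 4-cell libraries for CLDN1, DSC2 and DSG2 and are the 2 highest of the 8-cell libraries in the oocyte panel, at 4842 and 2909 CPM, while the DMEM triangle is above all 4-cell libraries for KRT8 and KRT18.

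CLDN8 and JUP, both called higher in the step to the 4-cell stage, were still present in every 8-cell library. CLDN8 had 145, 34.5 and 142 CPM in 8-cell FLI embryos and 64.8, 125 and 118 CPM in 8-cell DMEM embryos. JUP had 155, 42.3 and 155 CPM in 8-cell FLI embryos and 97.3, 159.8 and 169 CPM in 8-cell DMEM embryos. In both genes FLI replicate 2 and DMEM replicate 1 were again the low libraries of their groups, and neither was called against the 4-cell stage. Of the 16 genes higher in both media at the 4-cell stage, 15 had their lowest 8-cell FLI value in replicate 2 (59.0% of all genes called so) and 13 their lowest 8-cell DMEM value in replicate 1 (63.9%). At the 4-cell stage 11 of the 16 had their lowest value in replicate 3, in FLI (45.5% of all genes called so) and in DMEM (49.0%).

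The spread between libraries grew with the stage. The median range of the 43 genes within a group of 3 was 0.34 and 0.31 on the log2 scale in 2-cell FLI and DMEM embryos, 0.71 and 0.63 in 4-cell FLI and DMEM embryos, and 1.55 and 0.84 in 8-cell FLI and DMEM embryos. Over all tested genes it was 0.38 and 0.36, then 0.55 and 0.61, then 1.14 and 0.83, so the widening was common to the table. CDH1 shows it, with 819, 1009 and 615 CPM in 8-cell FLI embryos and 822, 980.2 and 805 CPM in 8-cell DMEM embryos, and so does PARD6B, with 602, 217 and 512 CPM in 8-cell FLI embryos and 364, 650.3 and 616 CPM in 8-cell DMEM embryos. EPCAM was the 1 tested gene of the 43 whose 6 8-cell libraries (99.5 to 185 CPM) lay below all 6 4-cell libraries (187 to 223 CPM), beside 3.98% of all tested genes. No tested gene of the 43 lay above in all 6, beside 0.94% of all tested genes.

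A comparison across both stage and medium, 4-cell FLI against 8-cell DMEM embryos, was part of the study. Here 0 of the 43 genes were called, as over all genes (0.0% in each direction), and 8 had an unadjusted p under 0.05 (15.3% of all tested genes). DESeq2 called 3 of them lower in 4-cell FLI embryos, KRT8, CLDN1 and CLDN4, and 3.52% of all genes in either direction. The smallest p was that of KRT8, with 0.984, 1.64 and 0.27 CPM in 4-cell FLI embryos, against 14.5, 22.8 and 9.64 CPM in 8-cell DMEM embryos (−3.96 ± 1.05, adjusted p = 0.128), and these groups did not overlap. CLDN1 followed (−2.01, adjusted p = 0.133), then DSC2 (−1.95, adjusted p = 0.153). Without the 3 libraries, under the limit given above for leaving them out, 8 genes were called lower in 4-cell FLI embryos (5.7% of all tested genes). Among them were KRT8 (−4.02 ± 0.798, adjusted p = 0.00132) and KRT18 (−2.18 ± 0.509, adjusted p = 0.00489). The 2 called higher were PARD3B and CTNND1 (11.6%).

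The maturation medium gave no call among these genes. With edgeR, 0 of the 43 passed the adjusted threshold between FLI and DMEM at the 2-cell, 4-cell or 8-cell stage or over the 3 stages together, and the same held for all 13187 genes (0.0% in each). At an unadjusted p of 0.05 there was 1 of the 43 at the 2-cell stage (2.15% of all tested genes), 0 at the 4-cell stage (2.31%), 4 at the 8-cell stage (7.85%) and 1 over the stages (4.55%). With DESeq2 0 of the 43 were called in any of these, beside 0.00758%, 0.0%, 0.254% and 0.276% of all genes with an adjusted p, which over the stages were 3981 genes. For the difference between media in the step from the 4-cell to the 8-cell stage, edgeR gave 1 of the 43 an unadjusted p under 0.05 (CLDN20, 3.31, 95% interval 1.15 to 5.46, adjusted p = 1.0), beside 3.07% of all tested genes, and none passed the adjusted threshold (0.0%).

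The intervals say how large a difference shared by the 3 stages could have been missed. The fit holds 1 medium effect for all stages, so they do not bound a difference at a single stage. Over the 3 stages the FLI minus DMEM log2 difference was −0.06 for CDH1 (95% interval −0.26 to 0.15), 0.11 for CTNND1 (−0.23 to 0.45), −0.09 for DSP (−0.36 to 0.18) and 0.19 for TJP1 (−0.11 to 0.49). For each of these 4 genes a log2 difference of 1 in either direction, taken as equal at the 3 stages, is outside the interval. It was −0.37 for JUP (−0.9 to 0.16), 0.07 for CLDN8 (−0.48 to 0.63) and −0.16 for PARD6B (−0.49 to 0.17), genes that rose in the step to the 4-cell stage. The intervals of the genes that varied most at the 8-cell stage were wider, at −0.29 to 0.96 for CLDN1 and −1.91 to 0.0 for KRT18.

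CLDN7 had the smallest unadjusted p over the stages, with a log2 difference of −0.41 (−0.81 to −0.01, adjusted p = 0.999 by edgeR). At the 2-cell stage its FLI libraries (9.17, 9.74 and 10.9 CPM) were all below its DMEM libraries (13.4, 17.3 and 12.1 CPM). At the 4-cell stage FLI libraries (93.3, 128 and 64.3 CPM) overlapped with DMEM libraries (109, 105 and 69.2 CPM). At the 8-cell stage FLI libraries had 96.5, 32.7 and 63.8 CPM and DMEM libraries 122, 94 and 111 CPM, with overlap, and a fitted difference of −0.76 (−1.43 to −0.09, adjusted p = 0.584 by edgeR). The other 3 with an unadjusted p under 0.05 at the 8-cell stage were CLDN20, GJB2 and CLDN10, all low genes that were higher in FLI, such as CLDN20 with 3.44, 3.35 and 1.84 CPM in FLI and 0.579, 1.53 and 0 CPM in DMEM. Without the 3 libraries that stand apart, 1 FLI and 2 DMEM libraries were left at the 8-cell stage. The log2 difference between media there was then −0.08 for CLDN7, 1.92 for CLDN20, 0.89 for GJB2 and 2.24 for CLDN10. Over the stages the log2 difference of CLDN7 was then −0.17.

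The order of the genes by TPM changed between stages and little between media. At the 2-cell stage CDH1, CTNND1, TJP1, LLGL1 and PARD3B were the 5 highest in both media, with mean TPM of 606, 383, 331, 247 and 205 in FLI and 622, 399, 324, 273 and 224 in DMEM. At the 4-cell stage PARD6B averaged 291 TPM, CTNND1 212 TPM and CLDN7 203 TPM in FLI, and PARD6B 291 TPM, CTNND1 192 TPM and CLDN7 189 TPM in DMEM, while CDH1 remained the highest in both. At the 8-cell stage PARD6B averaged 343 TPM in FLI and 366 TPM in DMEM. Keratin TPM summed to 1.25 ± 0.982, 43.4 ± 27.1 and 92.2 ± 91.6 at the 2-cell, 4-cell and 8-cell stage in FLI and to 0.946 ± 0.42, 66.9 ± 51.7 and 163 ± 23.5 in DMEM (SD, n = 3 each). The spread of the FLI keratin sum at the 8-cell stage was about as large as its mean.

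Genes below the filter, 23 in all, included CLDN2, CLDN5, CLDN9, CLDN11, CLDN14, CLDN15, CLDN16, CLDN17, CLDN18, CLDN19, CLDN22, GJA1, GJA3, GJA4, GJA9, GJB1, GJB6, GJB7, KRT7, PARD6A, PKP3 and TJP3. Each had at least 1 count in some library, and their highest values lay between 0.202 CPM (GJA3) and 5.53 CPM (GJB1, in 8-cell FLI replicate 3). CLDN5, CLDN11, CLDN14, CLDN16, CLDN17, CLDN19 and GJB7 also had their highest value in 8-cell FLI replicate 3. That library held 2167674 counts and the most genes detected (18595). KRT7, another keratin of simple epithelia, had at most 1.18 CPM. CLDN9 lies 0.225 kb from CLDN6 and reached 3.21 CPM, and CLDN17, 44.6 kb from CLDN8, reached 1.47 CPM. Whether such genes are silent or only below detection cannot be told apart at this depth.

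Other genes of the same structures were read from 2 further lists. Of 61 further junction and polarity genes 51 were tested, and in the step to the 4-cell stage 14 were called higher (34.6% of all tested genes) and 16 lower (27.2%) in FLI and 13 higher (35.2%) and 15 lower (28.4%) in DMEM. The median log2 fold change of the list was −0.36 in FLI and −0.28 in DMEM, beside 0.18 and 0.16 for all tested genes. The genes named from both lists are those with the smallest p unless said otherwise. DSC3, another desmosomal cadherin, averaged 31.1 CPM in 4-cell FLI embryos, against 0.0955 CPM in 2-cell FLI embryos (397 counts against 1, ratio 438, exact counting interval 78.2 to 17342, adjusted p = 5.47e-08 by edgeR), and 52.1 CPM in 4-cell DMEM embryos, against 0.19 CPM in 2-cell DMEM embryos (log2 fold change 7.65 ± 0.666, adjusted p = 1.5e-08). PERP, a desmosomal membrane protein, averaged 26.4 CPM in 4-cell FLI embryos, against 0.791 CPM in 2-cell FLI embryos (5.15 ± 0.494, adjusted p = 6.16e-08). RHOA (1.53 ± 0.175, adjusted p = 5.76e-07 by edgeR) and SYMPK (2.61 ± 0.326, adjusted p = 1.93e-06) followed in FLI. The 16 genes of this list called lower in FLI and the 15 in DMEM are not named here.

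Of 21 regulators of epithelial and trophectoderm genes 16 were tested, and 9 were called higher (34.6% of all tested genes) and 4 lower (27.2%) in 4-cell FLI embryos and 8 higher (35.2%) and 5 lower (28.4%) in 4-cell DMEM embryos. KLF4, a factor that drives epithelial genes, averaged 1076 CPM in 4-cell FLI embryos, against 39.0 CPM in 2-cell FLI embryos (4.79 ± 0.227, adjusted p = 1.26e-11), and 916 CPM in 4-cell DMEM embryos, against 39.8 CPM in 2-cell DMEM embryos (4.52 ± 0.223, adjusted p = 1.36e-11). TFAP2C, a trophectoderm factor in mouse, averaged 377 CPM in 4-cell FLI embryos, against 13.3 CPM in 2-cell FLI embryos (4.83 ± 0.255, adjusted p = 3.44e-11). TEAD4, the Hippo pathway's partner at trophectoderm genes in mouse, averaged 106 CPM in 4-cell FLI embryos, against 3.2 CPM in 2-cell FLI embryos (5.01 ± 0.366, adjusted p = 1.72e-09). SNAI1, known as a repressor of CDH1, was also higher, at 59.2 CPM in 4-cell FLI embryos, against 0.202 CPM in 2-cell FLI embryos (773 counts against 3, ratio 284, exact counting interval 96.9 to 1381, adjusted p = 8.42e-10 by edgeR). In DMEM the log2 fold changes of TFAP2C, TEAD4 and SNAI1 were 4.93, 5.37 and 6.2. The regulators called lower are named here after their values were seen. ESRP1, a splicing factor of epithelial cells, averaged 148 CPM in 4-cell FLI embryos, against 563 CPM in 2-cell FLI embryos (log2 fold change −1.93 ± 0.304, adjusted p = 2.75e-05). YAP1, the Hippo pathway's coactivator, averaged 93.4 CPM in 4-cell FLI embryos, against 322 CPM in 2-cell FLI embryos (−1.79 ± 0.303, adjusted p = 6.26e-05). The grainyhead factors GRHL1 (−1.92, adjusted p = 0.000159) and GRHL2 (−0.78, adjusted p = 0.014) were the other 2 in FLI. In DMEM the same 4 genes were called lower, with log2 fold changes of −1.71 for ESRP1, −1.65 for YAP1, −1.76 for GRHL1 and −1.01 for GRHL2, and ZEB1, a repressor of epithelial genes, was the fifth (−0.94, adjusted p = 0.0396).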

How the data were processed

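RNA of pooled embryos was made into libraries with a stranded SMARTer kit for small amounts of total RNA and sequenced as read pairs on an Illumina NovaSeq. The authors mapped reads to Sscrofa11.1 (submitters' processing notes) with bowtie2, and the deposited counts per gene and TPM came from the Illumina Dragen software. The sources used here give neither tool versions nor the strand setting of the counting, and 10 of the 66 genes overlap another gene, all on opposite strands. The table's 36 CPM and RPKM columns were not used.

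Raw counts were tested with edgeR 4.0.16 (R 4.3.3) by its quasi-likelihood test after TMM scaling and filterByExpr, with 1 mean per group over all 18 libraries, and p-values were adjusted over all tested genes. The effect of medium over the stages used stage and medium as terms. CPM here are TMM-scaled. Folds against a group of 0 counts used 3 counts over the group, and groups of 1 to 3 counts gave exact 95% counting intervals, which cover counting error only. The fit was tested on simulated data. DESeq2 1.42.0, other scalings, no filter, the replicate block, the compared groups alone and leaving out libraries were alternatives.

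Genes and lists were chosen with earlier results of these data known. Any of the 66 could be named. Per-library values were set for 21 genes of known role, each tested claudin and up to 4 genes of smallest p in a comparison. A few of the genes are counted in the totals and not reported here.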

Additional observations from a re-analysis of the deposited data

How the results depend on the processing

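Of the fold changes of named genes under the alternatives, 2843 kept their direction and their side of the threshold, 49 lost a call, 94 gained one and 23 changed sign, none of which had been called. At the 4-cell step CDH1, F11R, GJA10 and KRT8 in DMEM and CLDN1, CXADR, F11R, GJB2 and PRKCI in FLI lost the call under at least 1 setting, in most cases with 1 library left out. Genes called lower in 4-cell than in 2-cell DMEM embryos numbered 10, and 16 with library size only, with only the groups compared, or without the 3 8-cell libraries. The 8-cell counts depended most on the settings. In 8-cell FLI against 4-cell FLI embryos 1 gene was higher and 0 lower, and DESeq2 gave 4 higher and 1 lower. The groups compared alone gave 0 higher. Leaving out 1 library gave 0 to 6 higher and 0 to 3 lower (without 8-cell FLI replicate 2, 6 and 3). Leaving out the 3 libraries left 1 8-cell FLI library, and calls are not given for that setting. In 8-cell DMEM against 4-cell DMEM embryos, with 0 calls, DESeq2 gave 2 higher, leaving out 1 library 0 to 3 higher, and leaving out the 3 libraries 7 higher and 4 lower. For 4-cell FLI against 8-cell DMEM embryos, with 0 calls, DESeq2 gave 3 lower, the groups compared alone 1, leaving out 1 library 0 to 6, and leaving out the 3 libraries 8 lower and 2 higher. The cause was not tested.

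Library size as the scaling took the share of higher calls over all genes in 8-cell FLI against 4-cell FLI embryos to 56.6%, against 26.4% with TMM. Over all stages, correlations of deviations were −0.284 to 0.444 for same-numbered libraries (median 0.0188, 5 of 45 pairs over 0.1). For other pairs they were −0.484 to 0.529 (median −0.0061, 15 of 90 over 0.1). Between 4-cell FLI and 4-cell DMEM, same-numbered pairs had 0.127, 0.0337 and 0.249, and other pairs −0.211 to 0.105. Between 8-cell FLI and 8-cell DMEM, same-numbered pairs had −0.273, −0.235 and 0.444. Whether same-numbered libraries share a batch was not tested. With the replicate block 18 genes were higher and 10 lower in 4-cell DMEM than in 2-cell DMEM embryos, KRT8 losing its call.

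The changes of sign were all near 0. CTNNA1, 0.0 in 4-cell FLI against 2-cell FLI embryos, was −0.13 with library size only, −0.05 with no filter and −0.08 with the groups compared alone, and −0.07 to 0.04 with 1 library left out. DSP in that comparison was −0.06 with library size only, −0.01 with the groups compared alone and −0.16 to 0.23 with 1 library left out, and GJA5 −0.67 to 0.04. With 1 library left out PARD6B was −0.13 to 0.49 in 8-cell FLI against 4-cell FLI embryos. For FLI against DMEM over the stages, CDH1 was 0.0 with library size only, DSP 0.0 without 8-cell DMEM replicate 3, and with 1 library left out CTNND1 was −0.08 to 0.17 and CLDN8 −0.05 to 0.27. Genes at 3 counts or fewer in a group are limited by depth.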
